A study of Mus musculus with 70 samples.

Results

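The comparison is between BXD73 and BXD73b, related sub-strains of the BXD family of recombinant inbred mice, in liver DNA. All BXD73 mice (n = 7, 4 on standard chow or control diet, CD, and 3 on a high fat diet, HFD) were set against all BXD73b mice (n = 6, 3 on CD and 3 on HFD). These 13 females are 13 of the 70 mice of the study, and 354239 autosomal bins of 150 bp were compared of 368300 bins in the table. The label ages were 79 to 133 days in BXD73 CD, 80 to 133 in BXD73 HFD, 58 to 115 in BXD73b CD and 58 to 323 in BXD73b HFD, and in the study's table of animals these are the ages at the first weighing, while the livers were collected later. Each mouse gave 1 library of DNA captured with a methyl-CpG binding protein and sequenced (MBD-seq), and no transgene or deletion was used. The 12 strains and crosses of the study include 8 other inbred BXD strains (47 mice without the mouse the study excluded) and 9 mice of the reciprocal F1 crosses B6D2F1 and D2B6F1, and they did not enter the comparison of BXD73 with BXD73b. The other strains are BXD102, BXD40, BXD48, BXD48a, BXD65, BXD65b, BXD79 and BXD9. Of these 56 mice 48 were on CD and 8, of BXD48, BXD48a and BXD65, on HFD, with label ages of 30 to 488 days, and 3 were males (1 each of BXD102, B6D2F1 and D2B6F1).

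Inbred BXD strains descend from intercrosses of C57BL/6J and DBA/2J, so each locus of a fully inbred strain carries the allele of either parent, while an F1 mouse carries both. Sub-strains of a line share most of this mosaic, and can differ where the line was not yet fixed when they were separated. MBD-seq counts captured fragments, so a bin gains reads with the number of its methylated CpGs. A methylated CpG, the presence of the stretch in a mouse's DNA and the alignment of its reads to the C57BL/6J reference all enter this count, and these cannot be told apart in the deposited values.

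The 6 bins below give the sequence of bins that differed strongly. They are the bins with the smallest p of the 6 blocks of the genome with the most differing bins (blocks are defined below). The bases are those of the plus strand of the reference GRCm38.p6, 5′ to 3′, in lower case with each CpG dinucleotide in capitals. The *Efl1* bin is in an intron of that gene, which codes for a GTPase of ribosome assembly (chr7:82771351-82771500). The *Scgb1b7* bin is intergenic, 150110 bp from the nearest gene start, that of a secretoglobin gene (chr7:31862701-31862850). The *Gm33632* bin is in an intron of a predicted gene (chr8:86175001-86175150) and the *Cdh18* bin in an intron of a cadherin gene (chr15:22704601-22704750). The *Rpl10a-ps1* bin is in a pseudogene of a ribosomal protein gene (chr1:64994401-64994550). The *Gm39638* bin is intergenic, 70338 bp from the nearest gene start (chr1:47181451-47181600).
Efl1: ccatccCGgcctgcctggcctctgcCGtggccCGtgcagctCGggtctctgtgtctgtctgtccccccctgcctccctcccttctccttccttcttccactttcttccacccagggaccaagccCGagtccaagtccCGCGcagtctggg
Scgb1b7: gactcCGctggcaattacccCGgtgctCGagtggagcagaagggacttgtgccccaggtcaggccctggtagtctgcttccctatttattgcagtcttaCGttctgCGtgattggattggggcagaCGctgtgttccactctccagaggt
Gm33632: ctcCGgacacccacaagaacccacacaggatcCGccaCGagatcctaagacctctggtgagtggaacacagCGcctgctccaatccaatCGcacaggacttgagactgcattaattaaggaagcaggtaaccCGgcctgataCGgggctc
Cdh18: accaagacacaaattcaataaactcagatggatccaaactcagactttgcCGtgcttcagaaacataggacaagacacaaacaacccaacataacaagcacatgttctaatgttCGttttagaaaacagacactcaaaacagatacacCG
Rpl10a-ps1: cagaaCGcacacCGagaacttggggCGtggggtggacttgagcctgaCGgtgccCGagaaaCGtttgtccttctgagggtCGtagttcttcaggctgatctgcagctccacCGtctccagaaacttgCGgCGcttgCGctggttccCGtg
Gm39638: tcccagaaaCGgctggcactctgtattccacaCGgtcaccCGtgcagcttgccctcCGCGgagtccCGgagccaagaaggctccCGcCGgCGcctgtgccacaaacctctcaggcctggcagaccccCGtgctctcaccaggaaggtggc
None of the 6 bins held a sequence variant in the deposited table. In 4 of them, *Scgb1b7*, *Gm33632*, *Cdh18* and *Gm39638*, 78.7% to 100% of the bases are soft-masked in the reference, the mark of interspersed and simple repeats, and in *Efl1* 46.7% are. The *Rpl10a-ps1* bin has no masked base. All 6 share at least 1 stretch of 31 bases with another of the autosomal bins compared.

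The reads in these bins were present in all mice of a sub-strain and nearly absent from the other. In the *Efl1* bin the BXD73 mice had 45 to 65 reads (median 48) and no BXD73b mouse had a read, which against the 3 reads that a count of 0 over the group allows is at least 99.5-fold higher in BXD73. In the *Scgb1b7* bin the BXD73 mice had 46 to 54 reads (median 51) and the BXD73b mice none, at least 99.8-fold higher in BXD73. In the *Cdh18* bin the BXD73 mice had 37 to 63 reads (median 44) and the BXD73b mice none, at least 92.4-fold higher in BXD73. The remaining bins of the 6 went the other way, with higher counts in BXD73b. In the *Gm33632* bin the BXD73b mice had 42 to 63 reads (median 46) and no BXD73 mouse had any, at least 112-fold lower in BXD73. In the *Gm39638* bin the BXD73b mice had 35 to 42 reads (median 39) against 0 in each BXD73 mouse, at least 90.8-fold lower in BXD73. In the *Rpl10a-ps1* bin the BXD73b mice had 41 to 73 reads and the BXD73 mice 0, except for 1 read in each of 2 HFD mice. In all 6 bins the mice of the sub-strains did not overlap on either diet.

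**Figure D1:**
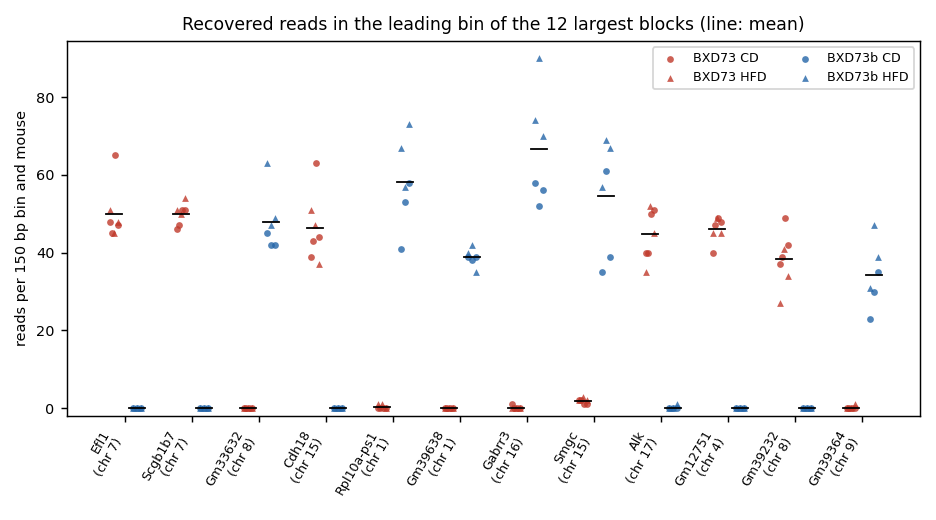
Recovered reads (vertical axis, reads per 150 bp bin and mouse) in the bin with the smallest p of each of the 12 blocks with the most called bins, with BXD73 in red, BXD73b in blue, circles for CD, triangles for HFD and a line at each sub-strain's mean. In each bin the higher sub-strain lies between 23 and 90 reads and the lower between 0 and 3.

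Over all autosomal bins, 4201 of 354239 (1.19%) differed between the sub-strains at an adjusted p of 0.05 in a limma fit with diet as covariate and Benjamini-Hochberg adjustment over all bins. These called bins comprised 2536 with higher log2 RPKM in BXD73 (0.716% of bins tested) and 1665 with lower (0.47%). The differences were large. The size of the log2 difference had a median of 1.73 (quartiles 0.95 and 3.18, range 0.35 to 5.09) against 0.10 over all bins tested. It was at least 1 in 3055 called bins (72.7%) and at least 3 in 1164. The 7 and the 6 mice did not overlap in 3694 of the called bins (87.9%), and in 1.15% of all bins. A called bin held a median of 9.29 reads per mouse in the lower sub-strain and 39.3 in the higher, and the median bin of the genome held 36.2. The median signed difference over all bins was -0.0002 on the log2 scale.

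The 13 libraries held 15978676 to 19490047 reads in bins, the median bin held 31 to 41 reads, and 3124 to 4235 autosomal bins per library held no read. The slope of log2 RPKM on the number of CpGs was highest in BXD73 CD replicate 4 (0.0485) and BXD73b CD replicate 3 (0.0455). Without these mice 4051 bins were called. The identity of the tissue could not be checked, since the table holds a promoter bin for only 3 of the 32 liver cell-type markers looked for and for 0 of 12 hepatocyte markers. Nothing in the labels says whether mice of 1 group were littermates, and p-values measure the spread between these mice.

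In some bins a sub-strain had almost no reads. There were 667 called bins (15.9%) with a mean below 1 read in either sub-strain and of at least 10 in the other, 436 of them near absent in BXD73b and 231 in BXD73. No BXD73b mouse had a read in 83 called bins, where the BXD73 mice had a median of 35.6 reads. No BXD73 mouse had a read in 31, where the BXD73b mice had a median of 34.3. Of the 667 bins, 572 (85.8%) held no listed variant, against 60.5% of all called and 82.6% of all tested bins.

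Diet made no detectable difference of this kind. No bin (0.0%) was called for HFD against CD in the limma fit, where 18572 bins (5.24%) were at an unadjusted p under 0.05 and the lowest adjusted p was 0.924. The voom fit on the recovered reads also called 0, with 19258 at an unadjusted p under 0.05. The difference between sub-strains was not shown to depend on diet either. The limma interaction gave 0 bins (0.0%), with 19149 at an unadjusted p under 0.05 and a lowest adjusted p of 0.916, and the voom fit gave 0 with 19899. When the diets were fitted apart, 2842 bins (0.802%) were called in the CD mice, and 2825 of these (99.4%) had the same direction in the HFD mice, with median log2 sizes of 2.64 in CD and 2.57 in HFD. In the HFD mice 3543 bins (1.0%) were called, and 3117 of these (88.0%) had the same direction in the CD mice, with medians of 2.20 and 2.13. The called sets shared 2548 bins, 89.7% of the CD calls and 71.9% of the HFD calls.

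The called bins clustered along the chromosomes. Of the called bins with an adjacent bin in the table, 91.7% had an adjacent bin that was also called, against 1.33% of all such bins, and 95.6% of consecutive called bins had the same direction. The median distance between consecutive called bins was 150 bp. The longest unbroken run was 13 bins (chr8:85126651-85128600), inside the predicted non-coding gene *Gm42031*. At a larger scale, 2048 of 2411 windows of 1 Mb (84.9%) held no called bin, while 36 windows held 50% of them. The densest window, at 32 Mb on chromosome 7, had 77 of its 83 bins called (92.8%). Adjacent bins can share fragments, so runs of a few bins are not independent measurements.

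Windows of 1 Mb with at least 5 called bins and at least 5% of bins called (and 3 times the share over all bins) were joined into blocks where at most 1 window lay between them. This gave 41 blocks, of which 9 were under 10 kb and 32 were long, from 35.0 kb to 26.3 Mb (median 2.05 Mb). The blocks held 4.12% of the tested bins and 87.5% of the called ones. The long blocks covered 110 Mb on 11 chromosomes. Within them 3618 of 14503 bins (24.9%) were called, in the 1 Mb on either side 0.808% and outside all blocks 0.155%. Because blocks were drawn around called bins, these shares describe them and carry no test.

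A long block went almost wholly in 1 direction. In 18 of the 32, every called bin had the same direction, the least uniform block had 85.7%, and 61 called bins in all (1.69%) went against their block. There were 15 long blocks with higher values in BXD73 and 17 with higher values in BXD73b. The longest block, chr7:56511751-82772100, held 842 called bins of 3232, and 828 were higher in BXD73. A second block on chromosome 7 (chr7:29618251-36941400) held 618 called bins of 1840, 609 of them higher in BXD73. On chromosome 8 (chr8:81891901-86994450) 240 of 244 called bins were lower in BXD73, and on chromosome 15 (chr15:19049401-26907750) all 239 were higher. On chromosome 1 all 204 called bins of chr1:63663751-68625300 and all 195 of chr1:43777651-48928350 were lower in BXD73. The block on chromosome 16 (chr16:56433451-66754950) had 190 of 192 lower.

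**Figure D2:**
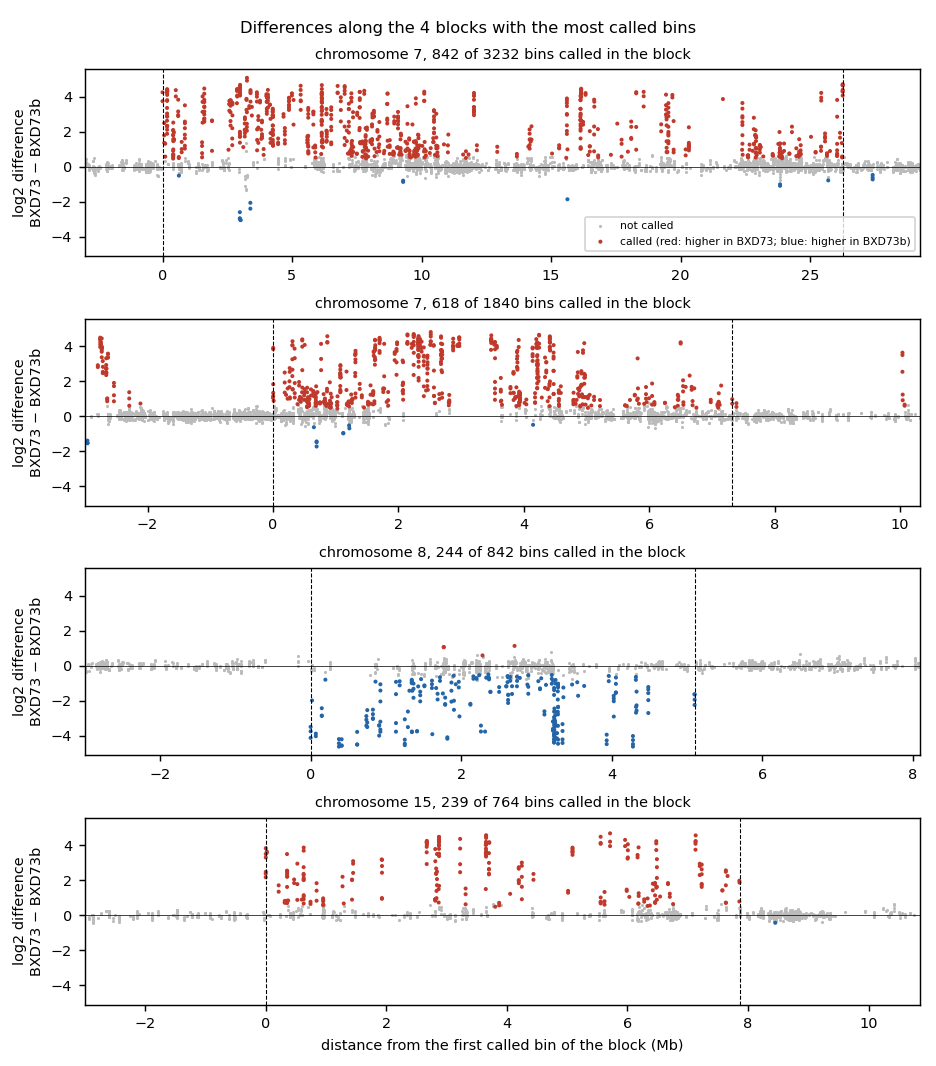
Log2 difference (BXD73 minus BXD73b, vertical axis) of each bin against its distance in Mb from the start of the block (horizontal axis), for the 4 blocks with the most called bins and 3 Mb on either side, with called bins in red or blue, other bins in grey and block ends as dashed lines. In the block on chromosome 15 all 239 called bins lie above 0, and in the block on chromosome 8 240 of 244 lie below 0.

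The bins of a block that were not called had a small median difference, which their selection by the same fit largely sets. The 10905 uncalled bins of the long blocks had a median size of the log2 difference of 0.12, against 0.10 for uncalled bins outside, and 25.3% of them held a variant. An unadjusted p under 0.05 was reached by 14.8% of uncalled bins in blocks and by 4.31% outside.

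Within the blocks, the share of bins that differed varied with their sequence class. The deposited table lists the number of sequence variants per bin. Variants were present in 39.5% of called bins (1658, Wilson 95% interval 38.0% to 41.0%) and in 17.4% of all bins tested, so that 60.5% of called bins held none. Inside the blocks the share was 40.7% of called bins against 29.2% of all bins tested there, and outside the blocks it was 30.8% of 526 called bins. The share fell with the size of the difference: it was 55.7% among called bins with a log2 difference under 1, 33.4% among those of at least 1 and 14.2% among those near absent in a sub-strain. Within blocks 21.1% of bins with no variant were called, 23.9% with 1, 36.4% with 2 and 57.9% with 3 or more. The intervals cover counting error only, and bins of a block are not independent.

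Repeats were more frequent among called bins too. At least 50% of bases were soft-masked in 64.7% of called bins and in 28.9% of all bins. A stretch of 31 bases was shared with another autosomal bin compared in 72.4% of called bins and 33.6% of all. The rest of the reference was not searched for such stretches. Inside the blocks 50.4% of masked bins without a variant were called, but 5.77% of unmasked bins without a variant. With a variant the shares were 48.4% and 30.1%. The median size of the log2 difference was 2.62 in called masked bins without a variant, and 1.07 in called unmasked bins with one. CpG-dense bins, those in windows that meet a CpG island rule, made up 14% of called bins and 6.3% of all.

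By gene feature, called bins were mostly outside exons. Intergenic bins made up 56.2% of called bins and 36.2% of all, introns 33.4% and 40.1%, coding exons 3.4% and 14.5%, and promoters 1.81% and 2.68%. Within blocks 37.6% of intergenic bins were called and 5.9% of coding-exon bins. These shares have no test, and the parts of repeat content, alignment and methylation in them were not tested.

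**Figure D3:**
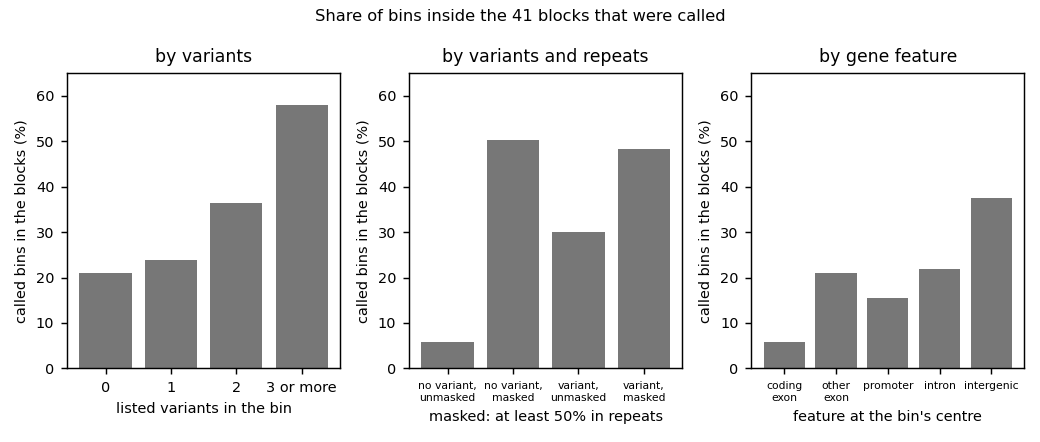
Share of bins inside the 41 blocks that were called (vertical axis, percent), by number of listed variants, by variants and repeat content, and by gene feature. The bars run from 21.1% at 0 variants to 57.9% at 3 or more, and from 5.77% in unmasked bins without a variant to 50.4% in masked ones.

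The remaining named bins were also chosen for the smallest p, so a near-complete difference in each was largely set by that choice. Of all called bins, 15.9% were near absent in a sub-strain. The bin in *Gabrr3*, a GABA receptor subunit gene, had 52 to 90 reads in BXD73b and 0 in BXD73 mice except for 1 read in 1 mouse (chr16:59457751-59457900). It also lies in the pseudogene *Orai2-ps*. The bin nearest to *Smgc*, a salivary gland protein gene, lies 70947 bp from its start (chr15:91909201-91909350). It had 35 to 69 reads in BXD73b and 1 to 3 in BXD73, and was the only named bin with a listed variant. The bin in an intron of *Alk*, a receptor tyrosine kinase gene, had 35 to 52 reads in BXD73 and a single read among the BXD73b mice (chr17:72136501-72136650). The bins of the pseudogene *Gm12751* on chromosome 4 and nearest to *Gm39232* on chromosome 8 had 40 to 49 and 27 to 49 reads in BXD73. Both had none in BXD73b, and the latter lies 127996 bp from the *Gm39232* start. The bin near *Gm39364* on chromosome 9 had 23 to 47 reads in BXD73b and 1 read among the BXD73 mice. The other bins with the smallest p lie in the same blocks as these. The bin next to that of *Efl1* (chr7:82771201-82771350) had 43 to 65 reads in BXD73, and that near the secretoglobin gene *Scgb2b30* (chr7:32133751-32133900) 46 to 64, with none in BXD73b in either. The bins nearest to the cytokine gene *Il15* (chr8:82304551-82304700) and to *Gm25138* (chr8:82510651-82510800) each had 35 to 51 reads in BXD73b and none in BXD73. They lie 94016 and 101634 bp from the starts of these genes. Across the 21 named bins the limma adjusted p was 9.02e-15 to 1.17e-12. The fitted log2 differences, such as 4.68 (SE 0.16) for *Efl1* and -4.98 (SE 0.18) for *Gabrr3*, depend on the prior count of the deposited values where a sub-strain is at 0.

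Outside the blocks, 526 called bins had a smaller median size (0.93 against 1.97 inside), but single bins were as far apart. A coding-exon bin of *Mepce*, whose product caps a small nuclear RNA, holds 20 CpGs and no masked base (chr5:137785801-137785950). It had 21 to 38 reads in BXD73b and 0 or 1 in BXD73, a log2 difference of -3.73 (SE 0.19, adjusted p = 6.49e-13 in limma). An intron bin of *Tafa4*, a chemokine-like gene, had 14 to 35 reads in BXD73b and none in BXD73 (chr6:97011151-97011300), at least 58.9-fold lower in BXD73. Both of these bins are unmasked and share no stretch of 31 bases with another autosomal bin compared. The rest of the reference was not searched. The bin nearest to *Slc4a3*, an anion exchanger gene 93971 bp away, had 49 to 60 reads in BXD73b and 0 or 1 in BXD73. That nearest to *Gm51552*, 17918 bp away, had 36 to 50 and 1 to 2. The intron bin of *Elmod1* had 31 to 52 reads in BXD73 and 0 to 2 in BXD73b. These last 3 bins are wholly masked. The *Tafa4*, *Slc4a3* and *Elmod1* bins lie less than 1 Mb from a long block.

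At the level of genes, 578 of 24250 genes with a bin in the body or the 2000 bases before it had a called bin (2.38%), 351 of them protein-coding, and 878 coding genes overlapped the long blocks. The non-coding host gene *Snhg14* had 75 of 94 bins called, 68 of them higher in BXD73, and *Snrpn*, the imprinted splicing-factor gene whose annotated span lies within it, had 22 of 29, all higher in BXD73. The bins of *Snrpn* are counted in both. Next were *Gabrg3*, a GABA receptor subunit gene, with 37 of 66 (36 higher in BXD73), *Cdh18* with 35 of 56 (all higher) and the receptor tyrosine kinase gene *Erbb4* with 29 of 37, all lower in BXD73 with a median log2 difference of -3.47. *Alk* had 28 of 83 called, *Adamts17*, a metalloprotease gene, 23 of 70, and *Lrrk1*, a kinase gene, 21 of 72. In *Lrrk1* and *Adamts17* 19 of the called bins held a variant, while in *Erbb4* 2 did. The pseudogene *Gm46010* had all 23 of its bins called and *Gm42031* all 22. Called bins of both directions occurred in 18 genes.

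Gene groups relevant to liver and to methylation were counted beside the 2.38% of all genes. Called bins fell in 2 of 55 imprinted genes, *Snrpn* and *Mkrn3*, and in 0 of 20 genes of the DNA methylation machinery. In the growth hormone and IGF axis *Igf1r* alone of 30 genes had called bins, 3 of 150 with a median log2 difference of 0.70. Of 43 lipid metabolism genes only *Acadl*, an acyl-CoA dehydrogenase of fatty acid oxidation, had any, with 3 of 5 bins lower in BXD73 by a median of -4.12. Of 62 cytochrome P450 genes *Cyp2c38* and *Cyp2c39*, whose annotated spans overlap, shared 1 called bin at a log2 difference of 0.68, and of 62 conjugation and transporter genes *Slco3a1* and *Slc22a12* had 1 each. Among zinc finger genes with the Zfp symbol, 12 of 279 had called bins. Of these 8 lie in the block chr7:29618251-36941400, all higher in BXD73, with *Zfp566* at 6 of 12 bins and a median log2 difference of 3.31. Of 14 H2 genes 0 had a called bin, and of 197 olfactory and vomeronasal receptor genes 4 had, among them *Olfr183* with 6 of 7 bins lower in BXD73 and *Vmn2r-ps16*, whose 5 called bins are also counted in *Zfp981*.

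The other strains and crosses did not enter the calls, although the filter by which the authors kept bins was applied over all libraries. For each mouse, the value at a called bin was placed on a scale where 0 is the BXD73b mean and 1 the BXD73 mean, and the median over the block was taken. In 246 of the 256 pairs of 8 inbred strains and 32 long blocks (96.1%) the strain lay within 0.2 of either level. There were 129 pairs on the BXD73 side and 127 on the BXD73b side, and in 253 every mouse of the strain lay on the same side. The 8 strains are not independent. BXD65 and BXD65b were on the same side in all 32 long blocks, and BXD48 and BXD48a in 31. Of the 10 pairs not within 0.2, 5 lay between the levels and 5 outside both. Of those outside, 4 were in chr1:79022551-79944150 (BXD102, BXD48, BXD48a and BXD9, -0.36 to -0.49). In 31 of the blocks the strains were on both sides. The block chr7:26659651-26987100 was the exception, where all 8 strains were at the BXD73 level (0.98 to 1.03). BXD102 was on the BXD73 side in 20 blocks and BXD9 in 13, the ends of the range. In the 9 short blocks only 23 of 72 pairs lay within 0.2 of either level.

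On the log2 scale the F1 crosses had median positions between the sub-strains in all long blocks but 1. Their median position toward the higher level was 0.707 on the log2 scale (range 0.491 to 1.06) and 0.53 on the linear RPKM scale (range 0.402 to 0.783), which was added after the log2 values were seen, and 62 of 64 pairs of cross and block were between 0.3 and 0.7 on the linear scale. The other 2 pairs are the crosses in chr1:79022551-79944150, where the BXD73b mice themselves were not alike (below). There B6D2F1 lay at -0.03 and D2B6F1 at -0.06 on the log2 scale from BXD73b to BXD73, beyond the BXD73b mean. Single mice could also lie beyond a level, as the highest D2B6F1 mouse did at 1.04 in chr7:39655201-39690150.

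**Figure D4:**
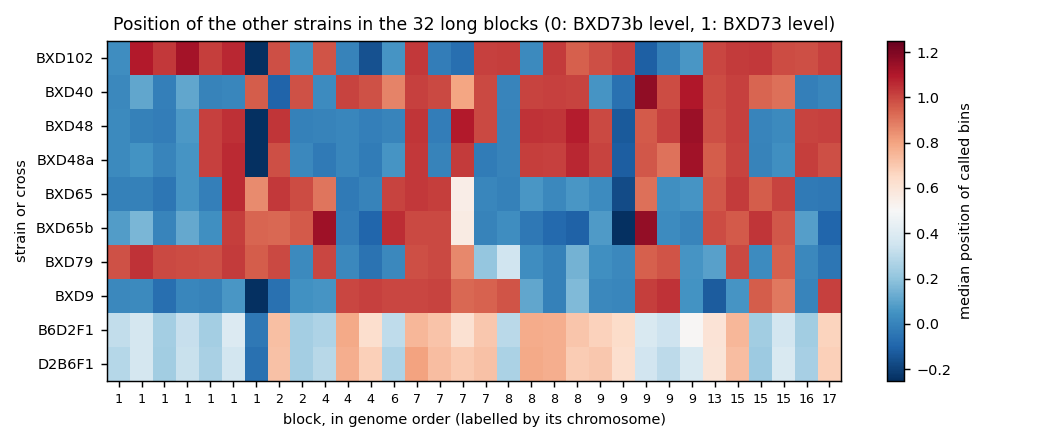
Position of the 8 other inbred strains and the F1 crosses (rows) in the 32 long blocks (columns, labelled by chromosome), as the median over called bins on the log2 scale, with blue for the BXD73b level (0) and red for the BXD73 level (1). The inbred strains are within 0.2 of either level in 246 of 256 cells, and the F1 rows are paler.

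The longest block also separated BXD48 from BXD48a, another pair of sub-strains. In it BXD48 lay at 0.997 and BXD48a at -0.02 on the same scale. Of the 790 bins called for both pairs, 729 lie in this block, 86.6% of its called bins. Over the genome 3172 bins (0.895%) differed between BXD48 and BXD48a, in 32 blocks of 93.3 Mb, and 678 (0.191%) between BXD65 and BXD65b, in 7 blocks of 11.5 Mb. Between BXD73 and BXD48, which is not one of its sub-strains, 35246 bins (9.95%) differed. The fit with BXD48 shares the BXD73 mice with the present comparison, and none of these counts was tested against another. The layouts also differed, which affects how many bins can be called. BXD65 had 6 CD and 2 HFD mice against 4 CD mice of BXD65b, and BXD48 and BXD48a 3 CD and 3 HFD mice each. BXD79 was mostly at the BXD73b level over the first 12.1 Mb of the block, in all but 79 of 485 bins that differed by at least 1 on the log2 scale, and nearer the BXD73 level in all 175 such bins after it, with a median of 0.208 over the block.

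A second view of the genome used bins chosen on the values of the other strains, among those the authors kept. In 14015 bins (3.96%) the means of the 8 other strains lay within 0.8 of a low or a high level that were over 2.5 apart on the log2 scale, and these are called strain-split bins here. BXD73 and BXD73b were on different sides at 1317 of them (9.4%) and on the same side at 90.6%. Of the 1317, 1284 were called and 1259 (95.6%) lie in the long blocks. In 2 Mb windows with at least 5 such bins, the sub-strains were apart in 58 of 635 (9.13%). The F1 mice had a median position of 0.755 over the strain-split bins on the log2 scale (quartiles 0.717 and 0.784).

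Mice of a sub-strain were mostly alike, as far as 2 checks could tell. With each mouse left out of the calls in turn, its median position on the scale from the other to its own sub-strain was 0.961 to 1.03. Of the bins, 95.1% to 99.2% placed it nearer its own. This covers only bins where the sub-strains differed. The second check misses gaps under 0.5, such as that in chr1:91130701-105021150 (0.732 and 0.724 against 0.927 to 1.0, below). Over the strain-split bins no 2 Mb window had BXD73 mice more than 0.5 apart, while 2 windows had BXD73b mice so, both on chromosome 1. In both, the same mice stood away from the other BXD73b mice, CD replicate 1 and HFD replicate 1, which have the same label age of 58 days.

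The departure of these mice ran over neighbouring stretches of chromosome 1. In chr1:79022551-80694150 (18 bins) the other 4 BXD73b mice were at 0.931 to 0.961 of the high level, BXD73 at -0.01 to 0.09, and the pair at -0.05 (CD replicate 1) and 0.01 (HFD replicate 1). In chr1:86320351-89102250 (9 bins) BXD73 and the other 4 mice were all at 0.92 to 1.01 and the pair at 0.0 and 0.104. In chr1:91130701-105021150 (140 bins) the pair was at 0.732 and 0.724, at the lower end of the F1 mice (0.727 to 0.784), with BXD73 at 0.927 to 1.0 and the other 4 at 0.957 to 0.981. In chr1:106300651-117709050 (225 bins) the pair was back with the others, at 0.962 and 0.959. The stretches were drawn from these values, so they carry no test. The called block chr1:79022551-79944150 therefore rests on 4 BXD73b mice, and with each of the pair left out of the calls it lay at the BXD73 level there (-0.06 and -0.02).

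Reads are given for 1 bin of each of the first 3 stretches, the strain-split bin with the largest log2 gap between the pair and the other 4 BXD73b mice among those where the latter had a median of at least 20 reads. In an intron bin of *Gm29536* (chr1:79126501-79126650) BXD73 mice had 2 to 8 reads (median 5), the other BXD73b mice 45, 50, 51 and 52, and the pair 0 (CD) and 2 (HFD), with 21 to 48 in F1 mice. In an intron bin of *Sh3bp4*, an endocytosis gene (chr1:89101801-89101950), BXD73 mice had 38 to 57 reads, the other BXD73b mice 40, 56, 61 and 61, and the pair 0 and 1. The third bin is intergenic, 358900 bp from the nearest gene start, that of *Gm29667* (chr1:100635901-100636050). There BXD73 mice had 31 to 46 reads, the other BXD73b mice 26, 35, 37 and 44, the pair 12 and 7, and the F1 mice 18 to 33. The pair was thus at the low level in the first and second bins. In the third it was below the F1 mice, unlike the median of that stretch, where it was near them.

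**Figure D5:**
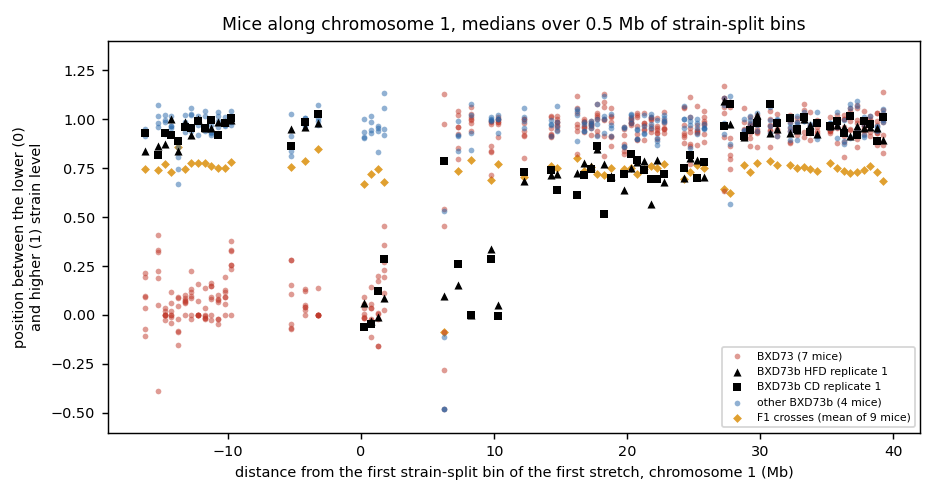
Position of each mouse between the low (0) and high (1) level of the other strains (vertical axis, log2 scale, medians over 0.5 Mb) against the distance in Mb along chromosome 1 (horizontal axis), with BXD73 in red, 4 BXD73b mice in blue, BXD73b CD and HFD replicate 1 in black and the mean of the 9 F1 mice as diamonds. Distance 0 is the first strain-split bin of the first stretch, at chr1:79022551. The black points lie at or near the low level from 0 to 2 Mb and mostly so from 6 to 11 Mb. They lie near the F1 points from 12 to 26 Mb and with the other mice elsewhere.

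Means over the genome were compared on values that had been scaled per library by the authors. This scaling largely sets the mean over all bins, so a difference in total methylation between the sub-strains could hardly appear in it. Mean log2 RPKM over all autosomal bins was 3.74 ± 0.01 (SD, n = 7) in BXD73 and 3.73 ± 0.01 (SD, n = 6) in BXD73b. Of 9 means, over all bins, gene features, CpG-dense, repeat and variant classes, none passed, with adjusted p of 0.587 to 0.916 in a two-sided exact permutation test of sub-strain within diet (700 assignments, smallest possible p 0.00286). The largest difference was 0.02 in bins with variants, 3.66 ± 0.04 (SD) in BXD73 against 3.64 ± 0.03 in BXD73b.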

How the data were processed

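MBD-seq was done on liver DNA, with 1 library per mouse. Per the labels and the methods of the authors, GRCm38 (mm10) was the reference of the alignment by Bowtie2 2.3.4.3, with FastQC 0.11.8 for quality and SAMtools 1.9 for the alignments, duplicates and reads of low mapping quality were removed, and edgeR gave the deposited values, log2 RPKM per 150 bp bin. The authors also deposited the number of variants and of CpGs per bin as counts, and a CpG and GC content as a fraction, which was not used. A prior count of 2 was inferred from the lowest values, where -0.41 stands for 0 reads, and in each library 100% of the values then came out as whole reads within 0.05. An aligner can discard or misplace reads from sequence that differs from the reference, which can lower a bin.

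The 13 mice were compared with limma 3.58.1 in R 4.3.3 (lmFit and eBayes with a trend, sub-strain and diet), two-sided, with Benjamini-Hochberg adjustment over the autosomal bins. Counts of reads recovered from the values went to voom as an alternative. The fit was tested on simulated data. Means were compared by exact permutation. Bins were annotated with RefSeq genes of GRCm38.p6 (promoter 1000 bases before to 100 after a start). CpG-dense bins overlap a window of 500 bp with at least 55% GC and an observed to expected CpG ratio of 0.65. The bins named are the smallest p of the 12 blocks with the most calls, the 5 smallest p in each direction, and the 5 smallest p among calls without variants outside blocks. The genes named are the 10 with the most called bins, those of the lists, and 3 bins of chromosome 1 chosen after their values were seen. The members and lists were chosen with earlier results of these data known. The mouse the study excluded was left out. Age at collection, in the study's table of animals, was used only as an added covariate. Other computations used Python 3.11.15, numpy 2.4.6, scipy 1.17.1 and pandas 2.3.3.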

Additional observations from a re-analysis of the deposited data

Results flagged for a closer look

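Of 60 sub-strain groups of values examined, 8 held a mouse far from the rest of its sub-strain by Dixon's ratio, where chance alone sets about 1 in 20 apart. BXD73 CD replicate 4 had the lowest mean log2 RPKM over intron bins (3.68, the other BXD73 mice 3.73 to 3.75) and the highest over CpG-dense bins (3.92 against 3.62 to 3.73). BXD73 HFD replicate 3 had the lowest mean over intergenic bins (3.57 against 3.61 to 3.64). BXD73b CD replicate 3 had the lowest mean over all autosomal bins (3.71 against 3.73 to 3.75) and over bins without variants (3.74 against 3.75 to 3.76). The other 3 are single reads in bins at 0 in the rest of the sub-strain. They are log2 RPKM of 0.19 in the *Gabrr3* bin of BXD73 CD replicate 1, 0.19 in the *Gm39364* bin of BXD73 HFD replicate 3 and 0.16 in the *Alk* bin of BXD73b HFD replicate 3, all against -0.41.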

How the results depend on the processing

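With no diet term, age or CpG slope added, all 69 mice in the fit, voom, other prior counts, a filter at 10 reads, or median centring, 4138 to 4536 bins were called, and voom shared 4149 of its 4331 with the 4201. Bonferroni adjustment at 0.05 gave 2567. Leaving out each mouse gave 3967 to 4261 bins, a variant share of 38.5% to 39.3%, 35 to 42 blocks and 0 bins for diet. The variant share was 31% in CD mice alone, 35.3% in HFD mice alone, 37.7% at an adjusted p of 0.01, 28.8% with Bonferroni adjustment and 33.4% at a log2 difference of at least 1 (chosen after seeing the data). The number of blocks was 56 with 0.5 Mb windows, 18 with 2 Mb windows, 41 and 30 when at least 2.5% and 10% of bins made a window dense, and 25 when up to 10 windows were allowed between dense ones, also chosen afterwards. The F1 position was 0.53 on the RPKM scale, likewise added. The cause of these changes was not tested. The differences of the genome-wide means changed sign in intron bins (-0.0058 to 0.0127 with each mouse left out), intergenic bins (-0.0013 to 0.0112), CpG-dense bins (-0.0354 to 0.0292, and 0.0036 after median centring) and repeat bins (-0.0165 to 0.0083, and 0.0048 after median centring), none of which passed the test. All 399 refits of the named bins kept their direction and call. The labels give no replicate numbers. A diet fit in limma with a block for the label age, in the 6 mice of 3 label ages that occur on both diets of a sub-strain (added after seeing the data), called 0 bins, with 13932 at an unadjusted p under 0.05. Shared litters are not stated, so these ages are not known to pair the mice. With 31 to 41 reads in the median bin, small differences may be missed.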

Other observations

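In a few bins the mice of a sub-strain were themselves split by a gap of at least 1.2 on the log2 scale. There were 702 such bins in BXD73, and in 487 of them CD replicate 4 stood alone. There were 626 in BXD73b, with CD replicate 3 alone in 260, CD replicate 1 alone in 78, and CD replicate 1 together with HFD replicate 1 in 51. These splits were counted after the data were seen and were not tested.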
